A study of Homo sapiens with 54 samples.

Results

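The genes of the autophagy machinery and the receptors that load it were followed through 54 RNA sequencing libraries of HEK293T cells, a human embryonic kidney line. The set holds 39 genes listed by symbol, under a rule that sets no condition on measured values, out of 38137 genes in the table. Of these 39 genes, 38 passed the low-count filter that left 15378 genes for testing, and MAP1LC3A did not. The study asked how the RNA-guided nuclease RfxCas13d and its high-fidelity forms, programmed against C9ORF72, change the transcriptome. There were 18 groups of 3 independent biological replicates. Cells were transiently transfected with WT RfxCas13d, N2V7 or N2V8, each driven by the CAG promoter of a plasmid, so that cells that took up plasmid and cells that did not were sequenced together. For each effector there were groups with the control crRNA that targets nothing (NTG), with the C9ORF72 guide crRNA-13 (S13), and with the guides S3, S4 or S7, for which the labels name no target site. ASO2 and ASO4, both antisense oligonucleotides, made up a group each, and UT cells received no transfection. Harvest was at 48 h by the labels, whereas the methods put it later.

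Autophagy encloses cytoplasm in a double membrane, the autophagosome, and delivers it to the lysosome. The ULK1 kinase complex starts the process, a phosphatidylinositol 3-kinase complex marks the membrane with a lipid, WIPI proteins read that lipid, ATG2 and ATG9 supply membrane, and enzymes related to the ubiquitin system attach ATG8 proteins such as LC3 and GABARAP to it. Cargo receptors tie ubiquitin-tagged material to ATG8 proteins, and TFEB, TFE3 and MITF are transcription factors of lysosomal and autophagy genes. C9ORF72 forms a complex with SMCR8 and WDR41 that is known to act in autophagy and at the lysosome, and SQSTM1 and OPTN are known disease genes of amyotrophic lateral sclerosis.

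Library totals ran from 9546826 to 15099153 estimated counts. C9orf72 (the file's symbol for the targeted gene, with all transcript variants summed) held 10.5, 11.9 and 10.6 CPM (counts scaled per unit of library size) in the ASO4 libraries and 27.5, 30.02 and 29.4 CPM in UT, and the means of the 16 other groups lay between 24.4 and 29.9 CPM. The second N2V7_S4 library was the most deviant one: its log2 residuals had an SD of 0.455, whereas no library outside that group exceeded 0.206. Of 12 genes known from HEK293 cells, 11 were above 1 CPM in every library, while 14 of 21 markers of other lineages stayed below 1 CPM in every library and 3 were above it in all (MNX1 was the highest, with a mean of 14.1 CPM). In bulk RNA, fewer cells with a transcript and less of it per cell cannot be told apart. CPM below are scaled by library total and TMM factor, and they are compared between groups for 1 gene and never between genes.

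A gene was called in a comparison when its change passed 0.32 on the log2 scale in either direction (a rise of 25%) and its adjusted p was under 0.05 in edgeR's quasi-likelihood F test. Asked whether they differed anywhere among the 18 groups, 36 of the 38 tested genes passed (94.7%), and ATG12 and MITF did not, beside 80.4% of all tested genes. The changes were small. The median distance between the lowest and the highest group was 1.48-fold for the autophagy genes and 1.61-fold for all tested genes. Across the 21 single comparisons there were 74 calls, which fell on 26 of the 38 genes. By comparison, the share called ran from 0% to 34.2% of the 38 genes and from 2.13% to 29.9% of all tested genes. The share of all genes is given with each comparison below. The lipid-binding and membrane-supplying members held 26 of them (6 up and 20 down, on 5 of 7 genes), and the phosphatidylinositol 3-kinase complex held 14 (7 up and 7 down), all on ATG14 and PIK3C3. The conjugation enzymes held 12 (6 up, 6 down), the initiation complex 7 (2 up, 5 down), the ATG8 family 7 (2 up, 5 down), the cargo receptors 6 (2 up, 4 down) and the MiT/TFE factors 2 (both down). ATG14 was called in 10 comparisons, WIPI1 and ATG2A in 8 each, and ULK1 in 5. Comparisons that share a control group are not independent, so these tallies describe where the calls fell.

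**Figure D1:**
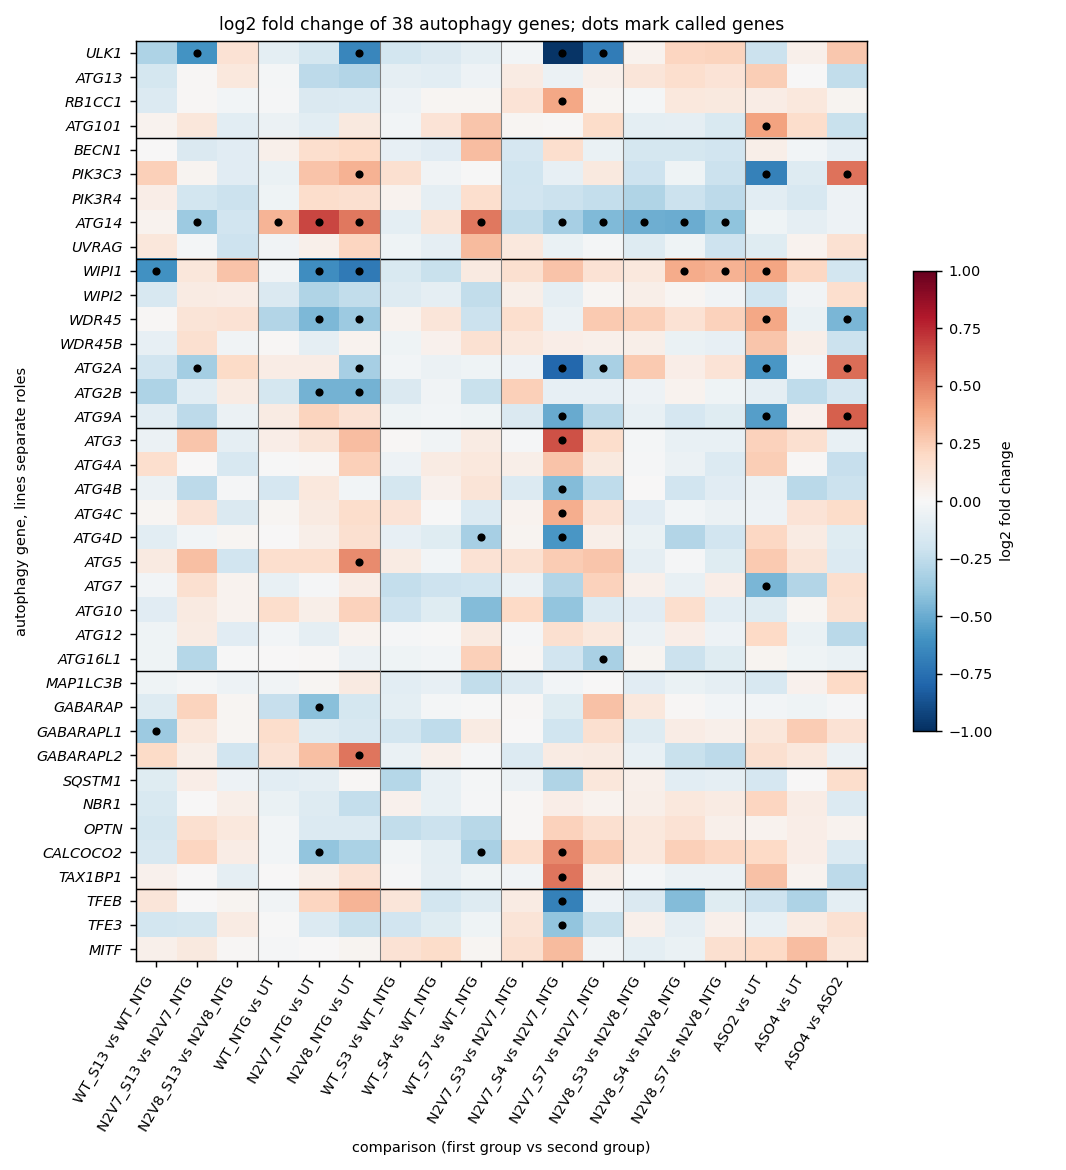
Fitted log2 fold changes of the 38 tested autophagy genes (rows, ordered by role) in 18 comparisons of 1 group with another (columns); black dots mark called genes. Most cells are pale, and the dots gather in the rows of ATG14, WIPI1, ATG2A and ULK1 and in the column N2V7_S4 vs N2V7_NTG.

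**Figure D2:**
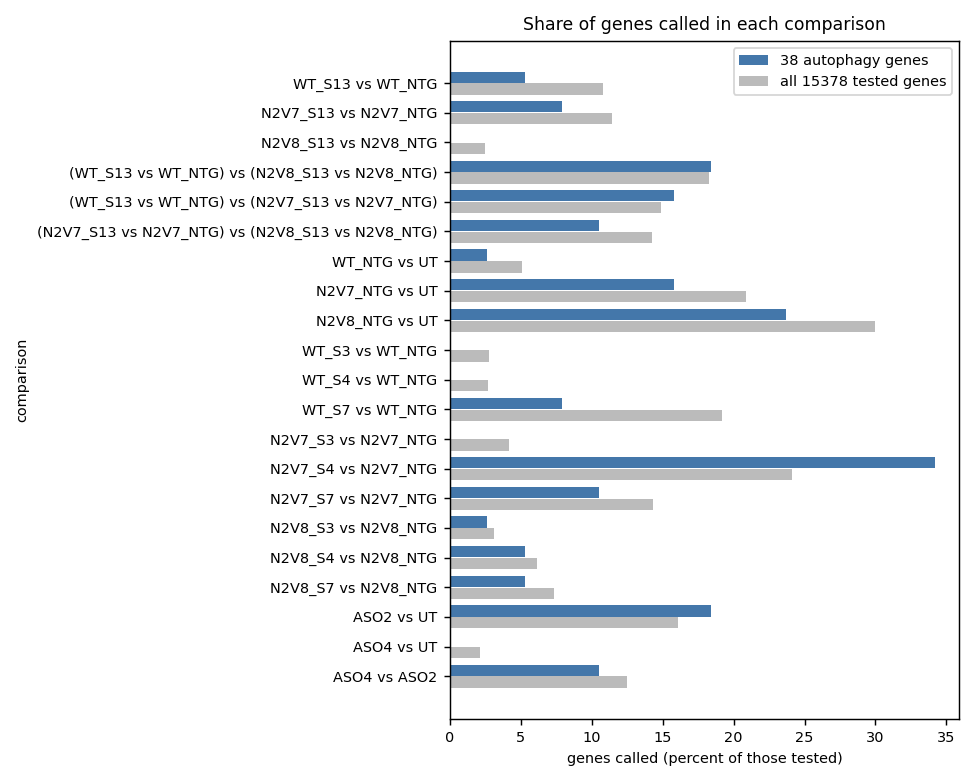
Percent of the 38 autophagy genes (blue) and of all tested genes (grey) that were called in each of the 21 comparisons. No autophagy gene was called in 5 comparisons, and the longest blue bar, 13 of 38 genes, is N2V7_S4 vs N2V7_NTG.

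The promoters of the 4 genes with the most calls are shown because these genes recur across the comparisons, and that of ATG3 because it is the only other member with the motif described here. Each window runs from 250 bases before to 50 bases after the gene start (RefSeq, GRCh38.p14). Windows were found for 34 of the 39 genes, and both strands were searched for the E-box CACGTG, for the longer CLEAR core GTCACGTG that contains it and is known as a TFEB site, and for the C/EBP-ATF element TGATGNAA known from ATF4. Both the E-box and the CLEAR core were in 2 of 34 windows (5.88%), those of ATG14 and ATG3, beside 7.44% (E-box) and 2.53% (CLEAR core) of all 27305 promoter windows. The C/EBP-ATF element was in none of the 34 and in 3.67% of all windows. Capitals mark the CLEAR core, and the windows with no capitals hold none of these letters:
ATG14 (chr14:55411781-55412080, minus strand): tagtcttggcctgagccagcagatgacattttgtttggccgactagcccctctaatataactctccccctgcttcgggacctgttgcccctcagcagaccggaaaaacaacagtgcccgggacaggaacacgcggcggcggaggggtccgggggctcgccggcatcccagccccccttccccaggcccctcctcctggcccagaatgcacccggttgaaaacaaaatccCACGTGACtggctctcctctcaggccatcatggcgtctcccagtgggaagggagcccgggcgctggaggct
ATG3 (chr3:112561913-112562212, minus strand): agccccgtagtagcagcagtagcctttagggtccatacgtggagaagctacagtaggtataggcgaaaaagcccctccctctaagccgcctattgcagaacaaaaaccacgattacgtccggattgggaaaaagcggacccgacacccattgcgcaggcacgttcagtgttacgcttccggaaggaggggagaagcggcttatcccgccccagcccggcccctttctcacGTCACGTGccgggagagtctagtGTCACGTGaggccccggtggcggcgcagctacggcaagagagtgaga
WIPI1 (chr17:68457447-68457746, minus strand): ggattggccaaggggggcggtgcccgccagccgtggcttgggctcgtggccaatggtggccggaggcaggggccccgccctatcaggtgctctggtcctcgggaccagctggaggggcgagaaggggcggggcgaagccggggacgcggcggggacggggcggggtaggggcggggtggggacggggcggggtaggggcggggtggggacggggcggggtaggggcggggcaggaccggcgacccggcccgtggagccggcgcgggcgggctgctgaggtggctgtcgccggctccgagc
ATG2A (chr11:64917160-64917459, minus strand): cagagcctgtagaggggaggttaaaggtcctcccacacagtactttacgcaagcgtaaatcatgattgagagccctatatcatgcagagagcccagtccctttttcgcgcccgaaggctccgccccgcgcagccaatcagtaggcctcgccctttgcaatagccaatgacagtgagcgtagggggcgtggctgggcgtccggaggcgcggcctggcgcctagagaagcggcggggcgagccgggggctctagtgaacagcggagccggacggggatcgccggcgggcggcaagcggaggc
ULK1 (chr12:131894372-131894671, plus strand): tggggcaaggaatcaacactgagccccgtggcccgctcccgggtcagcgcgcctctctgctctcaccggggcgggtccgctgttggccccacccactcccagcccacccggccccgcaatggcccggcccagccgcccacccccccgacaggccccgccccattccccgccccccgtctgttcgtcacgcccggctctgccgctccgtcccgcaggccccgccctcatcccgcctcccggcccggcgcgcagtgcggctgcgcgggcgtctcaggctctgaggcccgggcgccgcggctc

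With crRNA-13 and the WT effector, 2 autophagy genes fell and none rose. The falls were in WIPI1, which binds the lipid mark on the growing membrane, and in GABARAPL1, an ATG8 protein. WIPI1 stood at 23.9, 21.1 and 17.7 CPM in the WT_S13 libraries and at 27.6, 32.7 and 35.3 CPM in WT_NTG. The groups did not overlap, and the change was 1.52-fold down (log2 −0.60 ± 0.11, adjusted p = 2.63e-05, where ± is the SE). GABARAPL1 held 77.6, 75.2 and 67.9 CPM with S13 and 93.2, 93.9 and 96.5 CPM with NTG, again without overlap, a 1.28-fold fall (log2 −0.36 ± 0.08, adjusted p = 0.00156). That call was lost without WT_S13 replicate 3 (−0.31, adjusted p = 0.0169). These 2 of 38 genes stand beside 10.8% of all genes called in either direction and 4.24% that fell. Called or not, 19 of the 38 genes had libraries that did not overlap between the groups. How often this held over all tested genes was not counted here or below. Without WT_NTG replicate 2, 4 genes were called. Of the 38 genes, 14 had a positive log2 change, and their median was −0.06 beside 0.00 over all genes. The share of counts in ribosomal RNA genes was 1.79% to 2.30% in WT_S13 and 1.71% to 3.15% in WT_NTG.

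With N2V7, crRNA-13 was accompanied by falls in 3 genes that act at early steps, ULK1, ATG14 and ATG2A. ULK1, the initiating kinase, held 17.4, 17.3 and 19.7 CPM with S13 and 27.8, 24.9 and 29.5 CPM with NTG, a 1.51-fold fall without overlap (log2 −0.59 ± 0.12, adjusted p = 0.000348). ATG14, the subunit that directs the phosphatidylinositol 3-kinase to autophagosomes, held 10.6, 9.54 and 11.4 CPM against 14.3, 14.1 and 12.5 CPM (log2 −0.37 ± 0.11, adjusted p = 0.0121). ATG2A, a lipid transfer protein, held 17.4, 17.7 and 15.9 CPM against 20.9, 20.9 and 22.8 CPM (log2 −0.34 ± 0.10, adjusted p = 0.00876). All 3 genes were lower in every S13 library than in every NTG library. The smaller changes were less stable. ATG14 was not called without N2V7_NTG replicate 1 (−0.32, adjusted p = 0.0617) or N2V7_S13 replicate 2 (−0.31, adjusted p = 0.0749), and ATG2A was not called without N2V7_NTG replicate 3 (−0.30, adjusted p = 0.0528) or N2V7_S13 replicate 3 (−0.30, adjusted p = 0.0544). With no factor of unwanted variation in the model, ATG2A had an adjusted p of 0.112. In this comparison 11.4% of all genes were called and 7.78% fell. Ribosomal RNA genes took 4.17% to 4.42% of the counts in N2V7_S13 and 1.76% to 3.07% in N2V7_NTG, ranges that do not overlap, and their part in these changes was not tested.

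With N2V8, edgeR called none of the 38 genes between crRNA-13 and NTG, where 2.44% of all genes were called. At an unadjusted p under 0.05 there were 7 genes, and limma-trend and DESeq2 called 0 each. The 7 carry no fold threshold and were not counted over all genes, so they cannot be read against the 2.44%. The 2 genes that fell with WT stood at 21.9, 27.7 and 23.4 CPM (WIPI1) and 74.2, 74.6 and 79.9 CPM (GABARAPL1) in N2V8_S13. Their values in N2V8_NTG were 22.1, 17.5 and 20.2 CPM and 71.6, 72.3 and 81.3 CPM. WIPI1 had the largest positive difference of the 38 genes (0.29, 95% interval 0.06 to 0.51, adjusted p = 0.0704), and its libraries overlapped between the groups. PIK3R4, a subunit of the phosphatidylinositol 3-kinase complex, had the largest negative difference (−0.21, interval −0.36 to −0.07, adjusted p = 0.0255). Ribosomal RNA genes took 3.98% to 4.96% of the counts in N2V8_S13 and 1.81% to 3.52% in N2V8_NTG, without overlap. Without N2V8_NTG replicate 1 or N2V8_S13 replicate 1 the count of called genes was 1.

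Whether the crRNA-13 effect differed between effectors was tested directly, as a difference of differences. WIPI1 differed in both comparisons that involve WT. Its S13 effect was −0.60 with WT, 0.12 with N2V7 and 0.29 with N2V8 on the log2 scale. The WT effect lay below that of N2V8 by a log2 difference of −0.89 ± 0.16, adjusted p = 2.33e-05 and below that of N2V7 by one of −0.72 ± 0.16, adjusted p = 0.000448. The levels behind this are part of the result: WT_NTG held 31.9 ± 3.93 CPM (SD), N2V7_NTG 21.2 ± 3.39 and N2V8_NTG 19.9 ± 2.28, whereas the S13 groups stood at 20.9 ± 3.10, 23.1 ± 0.958 and 24.3 ± 3.01 CPM. The NTG groups thus differed more than the S13 groups did in their means. GABARAPL1 was also lowest with WT, with effects of −0.36, 0.10 and 0.02 and a difference between WT and N2V7 of −0.47 ± 0.12, adjusted p = 0.00401. ULK1 and ATG2A differed between N2V7 and N2V8 (−0.74 ± 0.18, adjusted p = 0.00168 for ULK1 and −0.53 ± 0.14, adjusted p = 0.00422 for ATG2A). Their NTG levels differed between these effectors as well. ULK1 held 27.4 ± 2.34 CPM (SD) in N2V7_NTG and 19.7 ± 1.99 in N2V8_NTG, and 18.1 ± 1.39 and 21.8 ± 1.63 with S13. ATG2A held 20.9, 20.9 and 22.8 CPM in N2V7_NTG and 15.8, 16.96 and 15.9 CPM in N2V8_NTG. With S13 its libraries held 17.4, 17.7 and 15.9 CPM (N2V7) and 21.2, 18.3 and 15.8 CPM (N2V8).

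In all, the WT and N2V8 effects differed in 7 of the 38 genes (2 ATG8 genes, PIK3C3, WIPI1, ATG2A, ATG2B and ATG4A), beside 18.3% of all genes. Of these, 3 differences were positive and 4 negative. GABARAPL2 held 97.8, 94.5 and 84.7 CPM in WT_S13 and 92.6, 92.3 and 94.1 CPM in N2V8_S13. Its NTG libraries held 81.7, 76.9 and 83.9 CPM with WT and 102, 106 and 111 CPM with N2V8. The WT and N2V7 effects differed in 6 genes (WIPI1, ATG3, GABARAP, GABARAPL1, OPTN and CALCOCO2), beside 14.9% of all genes, and in each of them the WT value was the lower one, beside 6.26% of all genes with a difference in that direction. The N2V7 and N2V8 effects differed in 4 genes (ULK1, ATG2A, ATG3 and ATG5), beside 14.2% of all genes. The cargo receptors OPTN and CALCOCO2 had effects of −0.17 and −0.16 with WT, and of 0.16 and 0.21 with N2V7. None of these 4 values was called on its own. Of the 17 differences, 8 held each time 1 library was left out: those of WIPI1, of GABARAPL2, of CALCOCO2 and GABARAPL1 between WT and N2V7, and of ULK1, ATG2A and ATG5 between N2V7 and N2V8. Of these 8, ATG2A was not called with no factor of unwanted variation (−0.53, adjusted p = 0.0746). ATG5, which is joined to ATG12 in the enzyme that lipidates ATG8 proteins, had effects of 0.30 with N2V7 and −0.19 with N2V8.

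**Figure D3:**
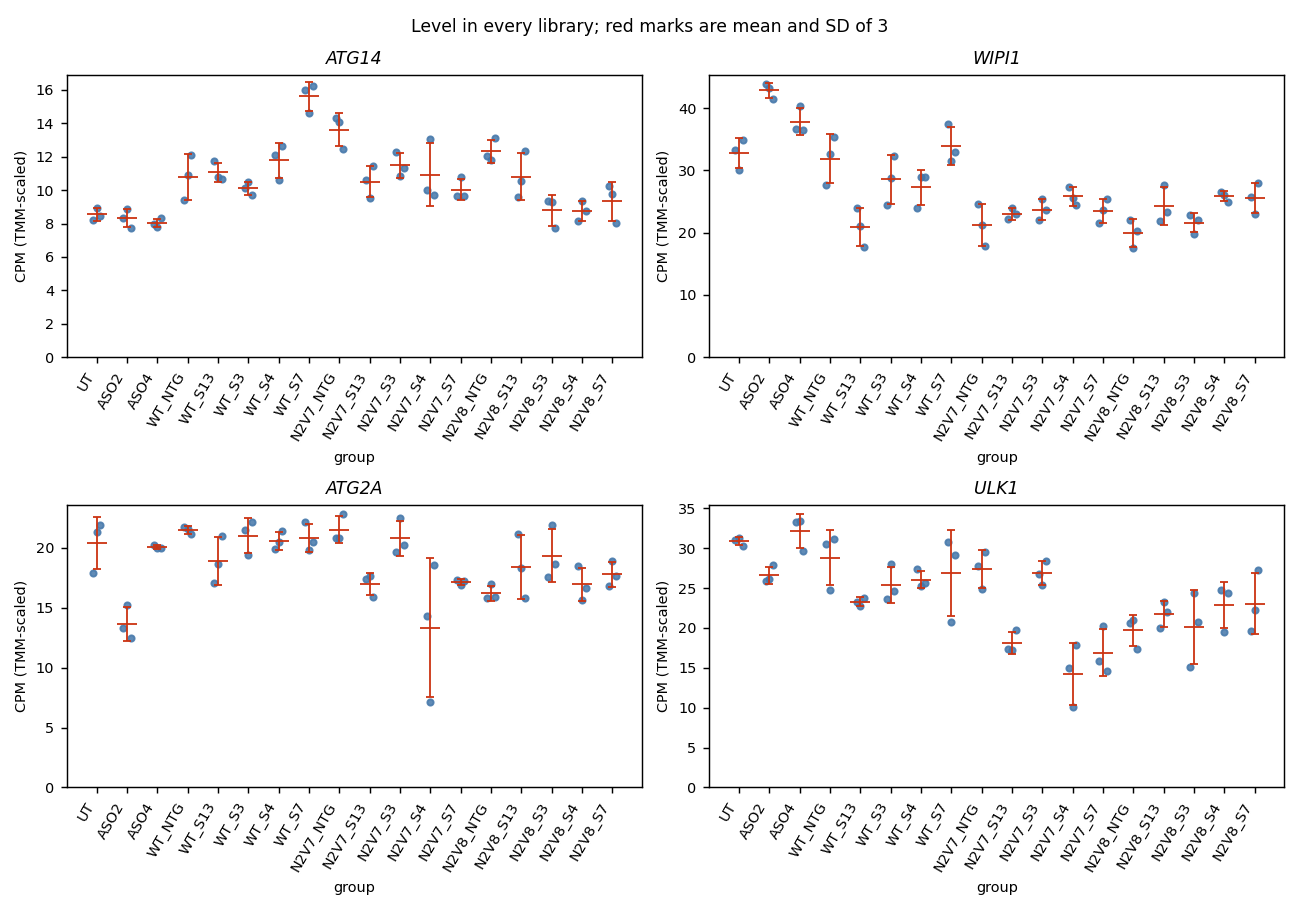
TMM-scaled CPM (vertical axes, from 0) of ATG14, WIPI1, ATG2A and ULK1 in the 18 groups (horizontal axes); points are single libraries and red marks the mean and SD of 3. WIPI1 lies lower in the groups with N2V7 and N2V8, and also in WT_S13 and WT_S4, than in UT. The lowest ATG2A and ULK1 points belong to library 2 of N2V7_S4.

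Transfected cells with a non-targeting crRNA were next compared with untransfected cells, a contrast in which transfection, effector and crRNA cannot be told apart and in which the 3 comparisons share the UT libraries. ATG14 was called with every effector. It held 8.22, 8.96 and 8.48 CPM in UT, 9.38, 10.9 and 12.1 CPM in WT_NTG, 14.3, 14.1 and 12.5 CPM in N2V7_NTG and 12.1, 11.8 and 13.1 CPM in N2V8_NTG, and no transfected library was as low as the highest UT library. The rise was 1.26-fold with WT (log2 0.34 ± 0.11, adjusted p = 0.0191), 1.59-fold with N2V7 (log2 0.67 ± 0.11, adjusted p = 3.26e-06) and 1.44-fold with N2V8 (log2 0.52 ± 0.12, adjusted p = 0.000239). With WT, where this was the only autophagy gene called, the call was lost without UT replicate 1 (0.31, adjusted p = 0.0698) or WT_NTG replicate 3 (0.24, adjusted p = 0.153). In that comparison 5.1% of all genes were called and 2.71% rose.

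WIPI1 went the other way with both high-fidelity forms. From 33.4, 30.1 and 34.8 CPM in UT it stood at 24.6, 21.2 and 17.9 CPM in N2V7_NTG and 22.1, 17.5 and 20.2 CPM in N2V8_NTG. These were falls of 1.54-fold (log2 −0.62 ± 0.11, adjusted p = 7.02e-06) and 1.63-fold (log2 −0.71 ± 0.11, adjusted p = 7.64e-07) without overlap, whereas WT_NTG differed from UT by −0.03 (95% interval −0.24 to 0.17). In the same group of lipid-binding and membrane-supplying genes, WDR45 and ATG2B also fell with both forms. WDR45, a relative of the WIPI proteins, held 29.7, 27.8 and 28.1 CPM in UT, 19.5, 21.98 and 21.4 CPM in N2V7_NTG (log2 −0.45 ± 0.09, adjusted p = 4.34e-05) and 24.8, 20.8 and 20.8 CPM in N2V8_NTG (log2 −0.36 ± 0.09, adjusted p = 0.000877). ATG2B, a lipid transfer protein, held 57.8, 69.6 and 67.5 CPM in UT, 45.5, 45.4 and 49.3 CPM in N2V7_NTG (log2 −0.48 ± 0.09, adjusted p = 2.07e-05) and 49.1, 41.99 and 49.6 CPM in N2V8_NTG (log2 −0.47 ± 0.09, adjusted p = 3e-05). The N2V8 call on WDR45 was lost without N2V8_NTG replicate 2 (−0.32, adjusted p = 0.00959) or N2V8_NTG replicate 3 (−0.32, adjusted p = 0.0106), both values being just short of the fold threshold.

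With N2V7, GABARAP and the receptor CALCOCO2 fell as well. GABARAP held 243, 181 and 185 CPM in UT and 152, 150.2 and 153 CPM in N2V7_NTG (log2 −0.41 ± 0.06, adjusted p = 2.61e-07), and the first UT library was far above the other two. Its call was lost without UT replicate 1 (−0.27, adjusted p = 0.000407). CALCOCO2 (NDP52), a receptor for bacteria and mitochondria, held 130.2, 122 and 121 CPM in UT and 92.2, 92.9 and 100.02 CPM in N2V7_NTG (log2 −0.39 ± 0.06, adjusted p = 9.98e-08). In all 6 of 38 genes were called with N2V7, 1 up and 5 down, beside 20.8% of all genes.

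N2V8 gave 9 calls, 4 up and 5 down, beside 29.9% of all genes. GABARAPL2, an ATG8 protein, held 102, 106 and 111 CPM in N2V8_NTG and 75.9, 71.003 and 73.1 CPM in UT, a 1.45-fold rise (log2 0.54 ± 0.05, adjusted p = 6.41e-12). ATG5 held 60.3, 47.9 and 53.2 CPM against 37.7, 40.3 and 38.4 CPM (log2 0.47 ± 0.08, adjusted p = 5.36e-06), and PIK3C3, the lipid kinase itself, held 38.4, 40.3 and 35.2 CPM against 30.2, 31.3 and 27.6 CPM (log2 0.35 ± 0.09, adjusted p = 0.00231). ULK1 was lower, at 20.7, 20.997 and 17.4 CPM against 31.1, 31.3 and 30.3 CPM, a 1.57-fold fall (log2 −0.65 ± 0.12, adjusted p = 2.99e-05). ATG2A held 15.8, 16.96 and 15.9 CPM against 17.9, 21.4 and 21.9 CPM (log2 −0.33 ± 0.10, adjusted p = 0.0076). None of these genes overlapped between the groups. That held for 23 of the 38 genes, called or not, but it was not counted over all genes. PIK3C3 lost its call without UT replicate 3 (0.30, adjusted p = 0.023) or N2V8_NTG replicate 2 (0.31, adjusted p = 0.0196). ATG2A lost its call without UT replicates 2 and 3 or N2V8_NTG replicates 1 and 3 (values from −0.32 to −0.29, adjusted p from 0.0264 to 0.0475).

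Of the 9 comparisons of an additional crRNA with NTG, 3 gave no called autophagy gene by edgeR, limma-trend or DESeq2. These were WT_S3 (2.74% of all genes called, 7 autophagy genes at an unadjusted p under 0.05), WT_S4 (2.67%, 4 genes) and N2V7_S3 (4.16%, 10 genes). The counts at an unadjusted p carry no fold threshold and were not made over all genes. They cannot be read against the shares of called genes. With WT and S7, where 19.2% of all genes were called, ATG14 rose (1.44-fold, log2 0.53 ± 0.11, adjusted p = 0.000144) to the highest group mean of the series, 15.6 ± 0.866 CPM. CALCOCO2 (−0.32 ± 0.06, adjusted p = 1.18e-05) and ATG4D, a protease of the ATG8 proteins (−0.33 ± 0.09, adjusted p = 0.004), fell in the same comparison. CALCOCO2 was not called without WT_NTG replicate 2 (−0.30, adjusted p = 0.00029), WT_NTG replicate 3 (−0.30, adjusted p = 0.000267) or WT_S7 replicate 1 (−0.32, adjusted p = 0.000164). ATG4D was not called without WT_NTG replicate 1 (−0.28, adjusted p = 0.0338) or WT_S7 replicate 3 (−0.31, adjusted p = 0.0217).

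With N2V8, ATG14 fell relative to NTG with each additional crRNA. The log2 changes were −0.49 ± 0.11, adjusted p = 0.000993 with S3, −0.49 ± 0.11, adjusted p = 0.00101 with S4 and −0.40 ± 0.11, adjusted p = 0.00859 with S7, and the group means of 8.79 ± 0.915, 8.77 ± 0.591 and 9.33 ± 1.15 CPM (SD) lay nearer to UT (8.55 ± 0.374 CPM) than to N2V8_NTG (12.3 ± 0.681 CPM). The call with S7 was lost without N2V8_S7 replicate 3 (−0.31, adjusted p = 0.0847). WIPI1 rose with S4 (0.37 ± 0.11, adjusted p = 0.0154) and S7 (0.35 ± 0.11, adjusted p = 0.026), to 25.8 ± 0.826 and 25.6 ± 2.46 CPM, which left both groups below the 32.8 ± 2.42 CPM of UT. The S4 call was lost without N2V8_NTG replicate 2 (0.29, adjusted p = 0.114), and the S7 call was lost without N2V8_NTG replicates 2 and 3 or N2V8_S7 replicates 1 and 3 (values from 0.26 to 0.35, adjusted p from 0.0529 to 0.158). Because the 3 comparisons share the N2V8_NTG libraries, their shared directions are not independent. No other autophagy gene was called, beside 3.07% of all genes with S3 (0.917% fell), 6.15% with S4 and 7.33% with S7.

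With N2V7 and S7, the 4 calls were all falls and included the 3 genes that fell with crRNA-13. ULK1 fell 1.63-fold (log2 −0.70 ± 0.13, adjusted p = 3.2e-05). The log2 changes were −0.44 ± 0.11, adjusted p = 0.00265 for ATG14, −0.33 ± 0.10, adjusted p = 0.013 for ATG2A and −0.33 ± 0.09, adjusted p = 0.00903 for ATG16L1, the partner of ATG12 and ATG5 at the membrane. Both crRNAs were set against the same N2V7_NTG libraries. ATG2A was not called without N2V7_NTG replicate 3 (−0.28, adjusted p = 0.072) or N2V7_S7 replicate 2 (−0.32, adjusted p = 0.041). ATG16L1 was not called without N2V7_NTG replicate 3 (−0.32, adjusted p = 0.0268), N2V7_S7 replicate 2 (−0.30, adjusted p = 0.0422) or N2V7_S7 replicate 3 (−0.29, adjusted p = 0.0525). Of all genes 14.3% were called and 8.91% fell. Ribosomal RNA genes took 2.997% to 4.86% of the counts in N2V7_S7.

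N2V7 with S4 gave the most calls, 13 of 38 genes beside 24.2% of all genes, and 8 of them were lost without library 2, the library that stood apart. The rises were in ATG3 (0.64 ± 0.06, adjusted p = 1.76e-11), in the receptors TAX1BP1 (0.53 ± 0.05, adjusted p = 1.18e-11) and CALCOCO2 (0.48 ± 0.06, adjusted p = 2.16e-09), in RB1CC1 (FIP200), the scaffold of the initiation complex (0.39 ± 0.05, adjusted p = 1.75e-09), and in the protease ATG4C (0.36 ± 0.07, adjusted p = 0.000131). ULK1 (−0.98 ± 0.13, adjusted p = 9.8e-08) and ATG2A (−0.79 ± 0.10, adjusted p = 4.98e-08) fell most. The transcription factors TFEB (−0.68 ± 0.20, adjusted p = 0.012) and TFE3 (−0.39 ± 0.07, adjusted p = 1.94e-05) were also lower. So were ATG9A (−0.50 ± 0.07, adjusted p = 4.21e-08), ATG14 (−0.33 ± 0.11, adjusted p = 0.0269) and the proteases ATG4B (−0.43 ± 0.11, adjusted p = 0.00193) and ATG4D (−0.58 ± 0.09, adjusted p = 2.31e-06). The libraries of N2V7_S4 and N2V7_NTG overlapped for RB1CC1, ATG14, ATG4B, ATG4C, TFEB and TFE3.

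In N2V7_S4, TAX1BP1 held 157, 328 and 146 CPM, ATG3 91.6, 160.3 and 73.3 CPM and ATG2A 14.3, 7.10 and 18.6 CPM in libraries 1 to 3, with library 2 the farthest from N2V7_NTG each time. Without library 2, ULK1 (−0.75, adjusted p = 1.99e-05), ATG2A (−0.39, adjusted p = 0.00979), ATG3 (0.33, adjusted p = 0.000869), ATG14 (−0.46, adjusted p = 0.00692) and ATG4B (−0.33, adjusted p = 0.0439) were called. The log2 values of the other 8 without it were TAX1BP1 0.17, CALCOCO2 0.26, RB1CC1 0.12, ATG4C 0.14, TFEB −0.13, TFE3 −0.18, ATG9A −0.19 and ATG4D −0.24. Other libraries mattered for a few genes. ATG14 was not called without N2V7_NTG replicates 1 and 2 or N2V7_S4 replicates 1 and 3 (values from −0.31 to −0.26, adjusted p from 0.0783 to 0.155), ATG4B was not called without N2V7_NTG replicate 3 (−0.31, adjusted p = 0.0575), and TFEB was also not called without N2V7_NTG replicate 3 (−0.51, adjusted p = 0.121). With no factor of unwanted variation, ATG14 (−0.32, adjusted p = 0.0618) and TFEB (−0.48, adjusted p = 0.22) were not called and the other 11 were. Ribosomal RNA genes took 0.899% of the counts in library 2, the lowest share of the 54 libraries, and 0.899% to 2.28% over the group, and their part in these changes was not tested. N2V7_S4 libraries carried 95.6% of the squared weight of the factor of unwanted variation. The SEs and adjusted p of the calls came from a fit of all 54 libraries with this factor. They do not measure the spread of N2V7_S4 alone.

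The fitted changes with N2V7 and S4, in which the deviant library 2 is included, followed base composition. Whether they do so without that library was not tested. Over the 38 genes, whose canonical transcripts (GENCODE 44) ranged from 34.7% GC in ATG4C to 64.8% in ATG4D, Pearson's r between GC content and log2 change was −0.74 and Spearman's rho was −0.68, beside a rho of −0.55 over 14451 genes. With crRNA-13 the rho over the autophagy genes was −0.34 for WT, −0.27 for N2V7 and 0.47 for N2V8, and over all genes it was −0.11, −0.19 and 0.14. These correlations run across genes of the same libraries, which are not independent, and are given as descriptions. ULK1 and ATG2A, called in several comparisons, belong to the GC-rich end. With N2V7 and S4 the median log2 change was −0.20 for the GC-richer 19 genes and 0.16 for the other 19. These medians were 0.06 and 0.01 with N2V7 and S13, and 0.05 and 0.04 with N2V7 and S7. The part of GC content in the changes of ULK1 and ATG2A was not tested.

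**Figure D4:**
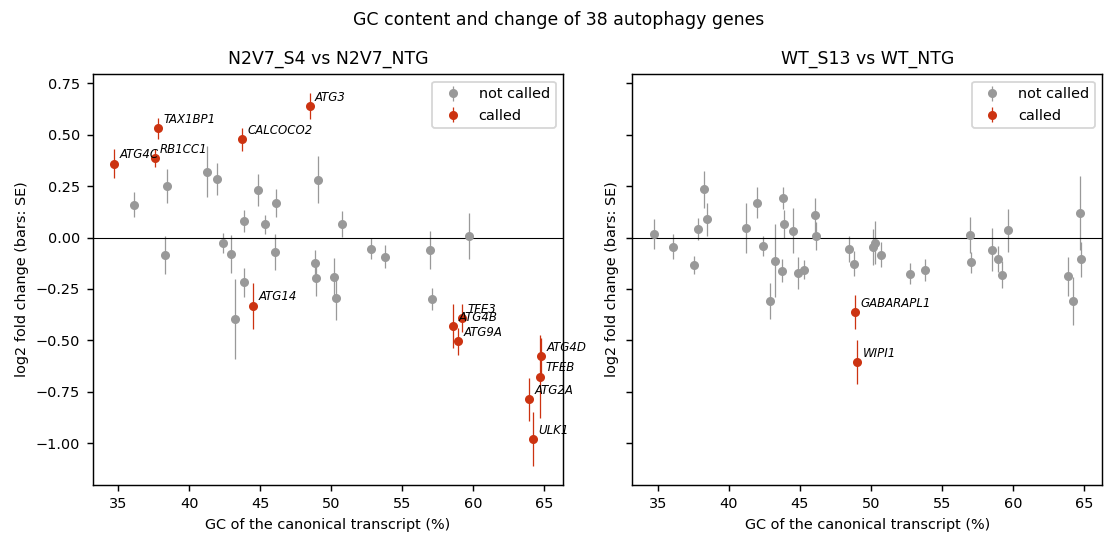
Log2 fold change (vertical axis, bars are SE) against the GC content of the canonical transcript (horizontal axis, percent) for the 38 autophagy genes in N2V7_S4 vs N2V7_NTG (left) and WT_S13 vs WT_NTG (right); called genes are red. On the left the called rises lie under 50% GC, and 7 of the 8 called falls lie above 55%. The left panel includes the deviant library 2 of N2V7_S4.

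Among the antisense oligonucleotides, ASO4, which lowered C9orf72 itself (log2 −1.40 ± 0.10, adjusted p = 2.17e-16), left no autophagy gene past the thresholds by edgeR, limma-trend or DESeq2, and 2.13% of all genes were called. At an unadjusted p under 0.05 there were 9 autophagy genes, a count with no fold threshold that was not made over all genes. Without UT replicate 1 or ASO4 replicate 3 there were 2 called genes, and without ASO4 replicate 1 there was 1. The extremes were TFEB (−0.31, 95% interval −0.69 to 0.08, adjusted p = 0.304) and MITF (0.31, interval 0.07 to 0.55, adjusted p = 0.0712). The receptors linked to the same disease had narrow intervals around 0: SQSTM1 differed by 0.01 (−0.10 to 0.11) and OPTN by 0.07 (−0.08 to 0.22).

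ASO2, which did not change C9orf72 as a whole gene past the thresholds (log2 0.04 ± 0.09, adjusted p = 0.852), was accompanied by 7 called autophagy genes, 3 up and 4 down, beside 16.1% of all genes. In the paper's qPCR of HEK293T cells, ASO2 lowered the C9ORF72 transcript variant V3 and not the pool of all variants, whereas ASO4 lowered both. The gene counts here sum all variants and could not show a change in V3 alone. The oligonucleotide and its delivery cannot be told apart against untransfected cells. PIK3C3 held 19.4, 20.3 and 16.3 CPM in the ASO2 libraries, 30.2, 31.3 and 27.6 CPM in UT and 25.6, 26.9 and 29.1 CPM in ASO4, and fell 1.59-fold against UT (log2 −0.67 ± 0.10, adjusted p = 4.3e-07). ATG9A, the transmembrane protein of the vesicles that seed the autophagosome, held 42.8, 37.6 and 41.7 CPM, against 60.4, 59.4 and 59.7 CPM in UT and 64.8, 62.02 and 58.3 CPM in ASO4 (log2 −0.55 ± 0.07, adjusted p = 3.81e-09). ATG2A, which works beside ATG9A, held 13.3, 15.2 and 12.5 CPM, against 17.9, 21.4 and 21.9 and 20.3, 19.98 and 19.99 CPM (log2 −0.58 ± 0.10, adjusted p = 1.12e-05). In each of these 3 genes every ASO2 library was below all UT and ASO4 libraries. ATG7, the activating enzyme of both conjugation systems, held 13.8, 13.9 and 15.5 CPM against 18.4, 20.9 and 19.98 CPM in UT (log2 −0.46 ± 0.11, adjusted p = 0.00126) and 16.99, 13.98 and 17.3 CPM in ASO4.

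WIPI1, WDR45 and ATG101, a subunit of the initiation complex, rose with ASO2. WIPI1 held 43.9, 43.2 and 41.5 CPM against 33.4, 30.1 and 34.8 CPM in UT (log2 0.39 ± 0.10, adjusted p = 0.0034), with 36.6, 40.3 and 36.6 CPM in ASO4. WDR45 held 32.3, 38.2 and 41.98 CPM against 29.7, 27.8 and 28.1 CPM (log2 0.39 ± 0.08, adjusted p = 0.000273), and ATG101 held 32.9, 39.9 and 30.8 CPM against 28.7, 23.7 and 25.9 CPM (log2 0.40 ± 0.10, adjusted p = 0.00309). The ASO2 and UT libraries did not overlap for any of the 3 genes. That held for 21 of the 38 genes, called or not, but it was not counted over all genes. WDR45 was not called without ASO2 replicate 3 (0.30, adjusted p = 0.0128). ATG101 was not called without UT replicate 2 (0.33, adjusted p = 0.0501) or ASO2 replicate 2 (0.29, adjusted p = 0.068).

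Set against each other, ASO4 and ASO2 differed in 4 autophagy genes, beside 12.5% of all genes. ASO4 was higher in ATG9A (1.51-fold, log2 0.60 ± 0.07, adjusted p = 2.51e-10), ATG2A (1.47-fold, 0.56 ± 0.10, adjusted p = 1.79e-05) and PIK3C3 (1.46-fold, 0.54 ± 0.10, adjusted p = 2.52e-05), and lower in WDR45 (1.37-fold, −0.46 ± 0.08, adjusted p = 1.63e-05). All 4 calls held each time 1 library was left out. The comparison uses the ASO2 libraries again and is not independent of the one with UT.

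**Figure D5:**
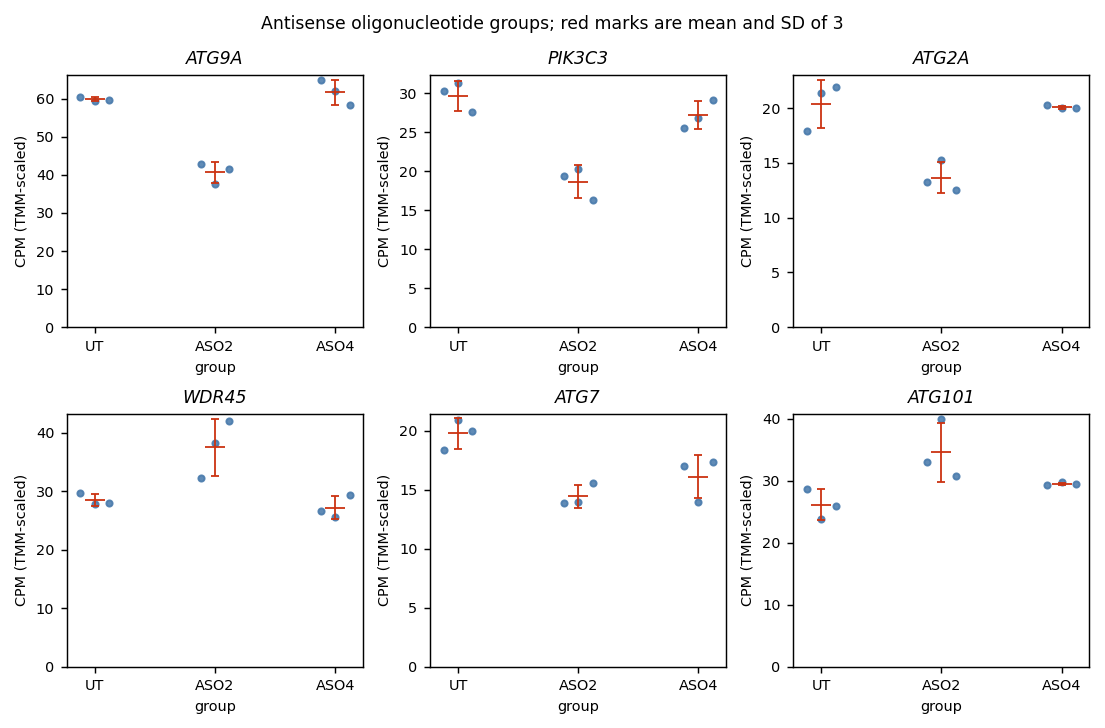
TMM-scaled CPM (vertical axes, from 0) of ATG9A, PIK3C3, ATG2A, WDR45, ATG7 and ATG101 in UT, ASO2 and ASO4 (horizontal axes); points are single libraries and red marks the mean and SD of 3. The ASO2 points of ATG9A, PIK3C3 and ATG2A lie below all others of the same gene.

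The remaining 12 tested genes passed the thresholds in no single comparison, and 10 of them differed somewhere among the 18 groups. In the initiation complex ATG13 ranged from 83.7 CPM in N2V7_S4 to 123 CPM in ASO2. In the phosphatidylinositol 3-kinase complex the scaffold BECN1 ranged from 47.7 CPM in WT_S4 to 63.9 CPM in WT_S7, PIK3R4 from 52.7 CPM in ASO4 to 66.4 CPM in N2V7_NTG and UVRAG, the subunit of the endosomal form, from 42.3 CPM in ASO2 to 56.03 CPM in WT_S7. Among the lipid-binding members WIPI2 ranged from 76.1 CPM in WT_S7 to 100.1 CPM in UT and WDR45B from 111 CPM in N2V7_NTG to 143 CPM in ASO2. Of the conjugation enzymes ATG10, which joins ATG12 to ATG5, ranged from 8.57 CPM in N2V7_S4 to 14.2 CPM in N2V8_S4, and ATG12, which did not differ among the 18 groups by the thresholds, from 64.5 CPM in N2V7_S3 to 79.7 CPM in ASO2. MAP1LC3B, the usual marker of autophagosomes, ranged from 118 CPM in WT_S7 to 151 CPM in N2V8_NTG. The receptor SQSTM1 (p62), itself degraded by autophagy, ranged from 95.5 CPM in WT_S3 to 131 CPM in N2V8_S3, and its relative NBR1 from 122 CPM in N2V8_NTG to 167 CPM in ASO2. MITF, the other gene that did not differ among the groups by the thresholds, ranged from 13.4 CPM in N2V8_S3 to 17.9 CPM in N2V7_S4. RNA levels do not measure autophagic flux, which acts on the proteins.

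MAP1LC3A reached a group mean of at most 0.0273 CPM and at most 1 count in a library. Salmon shares reads between near-identical transcripts, so a few members could lend or take reads from close copies. The copies that were listed held little: MAP1LC3B2 at most 0.817 CPM and GABARAPL3 at most 0.185 CPM in any library.

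Other genes of the pathway were counted from lists, to be read against the share of all genes called: 10.8%, 11.4% and 2.44% with S13 and WT, N2V7 or N2V8. In 22 tested genes of the remaining core machinery, 2 were called with S13 and WT (1 up, 1 down), 2 with N2V7 (both down) and 0 with N2V8. The 2 with N2V7 were RUBCN, a brake on autophagosome maturation (−0.49 ± 0.09, adjusted p = 6.88e-05), and FYCO1, an adaptor for kinesin transport (−0.49 ± 0.09, adjusted p = 3.49e-05). EI24 rose with S13 and WT (0.33 ± 0.06, adjusted p = 1.82e-05) and in N2V8_NTG against UT (0.73 ± 0.06, adjusted p = 2.3e-15). With ASO2, ULK2, the paralog of ULK1, held 9.52, 10.2 and 12.7 CPM against 32.7, 43.9 and 38.1 CPM in UT and 34.6, 32.2 and 36.6 CPM in ASO4 (log2 −1.83 ± 0.09, adjusted p = 1.06e-22 against UT), a larger change than that of any of the 38 genes in any comparison. ULK1 itself differed by −0.22 with ASO2 (95% interval −0.45 to 0.02, adjusted p = 0.218).

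Of 24 other receptor genes of selective autophagy, 4 were called with S13 and WT (2 up, 2 down), 1 with N2V7 (up) and 0 with N2V8. CALCOCO1, a receptor for the endoplasmic reticulum and a relative of CALCOCO2, fell with S13 and WT (−0.43 ± 0.08, adjusted p = 3.65e-05), as did WDFY3, a scaffold for aggregates (−0.42 ± 0.08, adjusted p = 5.54e-05). WDFY3 also fell with ASO2 (−0.87 ± 0.08, adjusted p = 1.1e-12). Of 22 genes of autophagosome and lysosome fusion, 1 was called with WT (down), 1 with N2V7 (down) and 0 with N2V8. Of 61 lysosomal genes, 7 were called with S13 and WT (4 up, 3 down), 0 with N2V7 and 0 with N2V8, whereas 25 were called in N2V8_NTG against UT (17 up, 8 down, beside 29.9% of all genes) and 10 with ASO2 (1 up, 9 down, beside 16.1% of all genes). Among the latter, GUSB (−0.86 ± 0.06, adjusted p = 2.68e-17) and TPP1 (−0.83 ± 0.06, adjusted p = 1.24e-15) encode lysosomal hydrolases. With ASO4, 2 lysosomal genes fell, beside 2.13% of all genes called. Of 46 genes that control mTORC1, AMPK or TFEB, 7 were called with S13 and WT (2 up, 5 down), 6 with N2V7 (1 up, 5 down), 2 with N2V8 (both up) and 8 with ASO2 (4 up, 4 down, beside 16.1%). RPTOR, the substrate-binding subunit of mTORC1, fell with ASO2 (−0.74 ± 0.09, adjusted p = 1.14e-09). The medians of these lists with S13 lay between −0.11 and 0.08 on the log2 scale, beside 0.00, 0.01 and 0.00 over all genes with WT, N2V7 and N2V8. In the C9ORF72 complex, SMCR8 differed by −0.28 ± 0.08, adjusted p = 0.00747 with S13 and N2V7, short of the fold threshold. With N2V7 it was called with S7 (−0.44 ± 0.08, adjusted p = 2.54e-05, beside 14.3% of all genes) and S4 (−0.32 ± 0.08, adjusted p = 0.00171, beside 24.2%). The S13 effect on WDR41 was lower with WT than with N2V7 (−0.35 ± 0.07, adjusted p = 0.000242, beside 14.9%).

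WIPI1 was set beside 40 targets of the integrated stress response, a program in which ATF4 raises genes of amino acid supply and some autophagy genes. With S13 and WT, where WIPI1 was 1.52-fold lower, 18 of the 40 fell and 1 rose (list median log2 −0.30, all genes 0.00). With S13 none fell, and 9 (N2V7) and 13 (N2V8) rose, where WIPI1 differed by 0.12 and 0.29. In N2V7_NTG and N2V8_NTG against UT, where WIPI1 fell, 29 and 27 of the 40 fell and none rose (medians −0.43 and −0.57, all genes 0.00 and 0.00). Other autophagy genes did not all move with WIPI1. In N2V8_NTG against UT, 4 of the 38 genes were called up, GABARAPL2 the most (0.54), and 5 were called down. With N2V8 and S4 or S7, where WIPI1 rose, 24 and 25 rose and none fell (medians 0.37 and 0.43, all genes 0.00 and 0.00). In WT_S7 against WT_NTG, 29 of the 40 fell and none rose, and WIPI1 differed by 0.09 (95% interval −0.12 to 0.29). With ASO2, where WIPI1 rose by 0.39, 4 of the 40 rose and 1 fell. With N2V7 and S3 or S7, 20 and 16 of the 40 rose and none fell, and WIPI1, which was not called, differed by 0.16 and 0.15. With N2V8 and S3, 10 rose and none fell, and WIPI1 differed by 0.11 and was not called. With N2V7 and S4, 12 rose and 1 fell, and WIPI1 was not called (0.28 with no factor of unwanted variation). The shares of all genes called in these comparisons ran from 2.44% (N2V8_S13) to 29.9% (N2V8_NTG against UT). Several of these comparisons share control libraries, so the values are given side by side and their relation was not tested.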

How the data were processed

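Stranded poly(A) libraries of 54 HEK293T samples, 3 independent replicates in each of 18 groups, were sequenced as read pairs. The authors quantified reads with Salmon 1.5.2 against NCBI's human annotation with the genome as decoy, keeping reads that match several places, and deposited estimated counts per gene, scaled with tximport by transcript length and library size. The deposited table also marks with a TRUE or FALSE value which genes the authors kept, and this column was not used. Groups came from the sample labels. The treatment label of N2V8_S13 spells the effector differently from its title, and the title was followed.

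Counts were rounded to whole numbers and filtered with filterByExpr. TMM scaling and the robust quasi-likelihood F test of edgeR 4.0.16 (R 4.3.3) were used, fitting all 54 libraries at once with group terms plus 1 RUVr factor, which captures unwanted variation from first-pass residuals. P-values were adjusted by Benjamini-Hochberg jointly across the genes and the comparisons of each family. SE is the log2 fold change divided by the square root of F. The scripts were checked on simulated data. The alternatives were no factor, limma-trend (limma 3.58.1), DESeq2 1.42.0, DESeq2 size factors, no low-count filter, a replicate block, leaving out each library, and only the compared libraries without the factor, which changes both the libraries fitted and the factor. Leaving out N2V7_S4 replicate 2 in comparisons without that group was added after seeing the data. The member rule uses symbols alone, but members and gene lists were chosen with earlier results of these data known. All members are named. Those called with S13, NTG or an ASO are mostly given by library, those called with an additional crRNA by fold change, and up to 3 called genes of each list per family were eligible to be named. The promoter of ATG3 was chosen after its motif was seen. GC content came from GENCODE 44 canonical transcripts. Library totals of 9546826 to 15099153 set the counting precision.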

Additional observations from a re-analysis of the deposited data

Results flagged for a closer look

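These 17 differences were picked out because the effect of crRNA-13, each relative to its own NTG, differed between effectors by a direct test of the difference (edgeR, log2 ± SE, first effector minus second). Each difference depends on the NTG levels of both effectors as well as on their S13 levels. No technical or biological reading of them was tested.

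Between WT and N2V8, the differences were in WIPI1 (−0.89 ± 0.16, adjusted p = 2.33e-05), ATG2B (−0.39 ± 0.13, adjusted p = 0.0199), GABARAPL1 (−0.38 ± 0.12, adjusted p = 0.0191), ATG2A (−0.38 ± 0.14, adjusted p = 0.0429), GABARAPL2 (0.38 ± 0.07, adjusted p = 0.000123), PIK3C3 (0.35 ± 0.13, adjusted p = 0.0451) and ATG4A (0.33 ± 0.11, adjusted p = 0.023). ATG2B was not called without WT_NTG replicate 1 (−0.30, adjusted p = 0.0914), N2V8_NTG replicate 2 (−0.32, adjusted p = 0.0783) or WT_S13 replicate 1 (−0.35, adjusted p = 0.0577). GABARAPL1 was not called without N2V8_NTG replicate 1 (−0.35, adjusted p = 0.0504), WT_S13 replicate 3 (−0.33, adjusted p = 0.0613) or N2V8_S13 replicate 3 (−0.35, adjusted p = 0.0543). ATG2A was not called without WT_NTG replicates 1, 2 and 3, N2V8_NTG replicates 1 and 3, WT_S13 replicates 1 and 2 or N2V8_S13 replicates 1 and 2 (values from −0.39 to −0.27, adjusted p from 0.0556 to 0.184). PIK3C3 was not called without WT_NTG replicates 1 and 3, N2V8_NTG replicates 1 and 2, WT_S13 replicates 2 and 3 or N2V8_S13 replicate 3 (values from 0.24 to 0.36, adjusted p from 0.0641 to 0.19). ATG4A was not called without WT_NTG replicates 1 and 3, N2V8_NTG replicate 2 or N2V8_S13 replicate 2 (values from 0.25 to 0.32, adjusted p from 0.0444 to 0.105). With no factor of unwanted variation, GABARAPL1 (adjusted p = 0.106), ATG2A (0.228) and PIK3C3 (0.0907) were not called. With no low-count filter, ATG2A (0.0859), PIK3C3 (0.0757) and ATG4A (0.0737) were not called. With DESeq2, ATG2A (0.0586) and PIK3C3 (0.0571) were not called, nor with only the compared libraries (0.0698 and 0.0594), and limma-trend did not call ATG2A (0.0528).

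Between WT and N2V7, the differences were in WIPI1 (−0.72 ± 0.16, adjusted p = 0.000448), GABARAPL1 (−0.47 ± 0.12, adjusted p = 0.00401), CALCOCO2 (−0.37 ± 0.08, adjusted p = 0.000357), GABARAP (−0.35 ± 0.09, adjusted p = 0.00278), OPTN (−0.33 ± 0.11, adjusted p = 0.0201) and ATG3 (−0.33 ± 0.09, adjusted p = 0.00612). GABARAP was not called without WT_S13 replicate 1 (−0.32, adjusted p = 0.0114). OPTN was not called without WT_NTG replicate 3, N2V7_NTG replicate 3, WT_S13 replicate 2 or N2V7_S13 replicate 2 (values from −0.31 to −0.28, adjusted p from 0.0525 to 0.0765). ATG3 was not called without N2V7_NTG replicate 3, WT_S13 replicate 3 or N2V7_S13 replicates 2 and 3 (values from −0.32 to −0.29, adjusted p from 0.0153 to 0.0263). With no factor, GABARAP (adjusted p = 0.205), OPTN (0.0922) and ATG3 (0.248) were not called.

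Between N2V7 and N2V8, the differences were in ULK1 (−0.74 ± 0.18, adjusted p = 0.00168), ATG2A (−0.53 ± 0.14, adjusted p = 0.00422), ATG5 (0.49 ± 0.11, adjusted p = 0.00115) and ATG3 (0.36 ± 0.09, adjusted p = 0.00247). ATG3 was not called without N2V8_NTG replicate 2 (0.32, adjusted p = 0.0127). With no factor, ATG2A (adjusted p = 0.0746) and ATG3 (0.194) were not called.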

How the results depend on the processing

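Of the 74 calls, 35 held in all alternatives and each time 1 library was left out, and none changed direction. DESeq2 size factors lost none, limma-trend and DESeq2 lost 3 each, no low-count filter 8, no factor 14 and only the compared libraries 16. Replicate numbers did not pair the samples (mean correlation of same-numbered deviations 0.00269, and 0 of 18 pairs of groups with all above 0.1), and the replicate block lost none of the 74 calls. With no factor the counts of called genes were 4 for the difference between WT and N2V8, 3 between WT and N2V7 and 2 between N2V7 and N2V8. With no low-count filter they were 0 in WT_NTG against UT and 1 in N2V8_S7. With only the compared libraries they were 0 in WT_NTG against UT, 1 in N2V7_S4 and 1 in N2V8_S7. Calls over all genes moved too: N2V7_S4 had 3714 called genes, and 342 with only the compared libraries. With no factor they went from 2810 to 2005 for the difference between WT and N2V8, from 2189 to 1441 for that between N2V7 and N2V8, from 375 to 241 in N2V8_S13 and from 328 to 212 in ASO4 against UT. The cause was not tested.

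With 1 library left out, the counts ranged from 2 to 4 in WT_S13 (4 without WT_NTG replicate 2), 0 to 1 in N2V8_S13 (1 without N2V8_NTG replicate 1 or N2V8_S13 replicate 1) and 4 to 8 for WT against N2V8 (4 without WT_NTG replicate 1 or 3). They ranged from 0 to 1 in WT_NTG against UT (0 without UT replicate 1 or WT_NTG replicate 3), 2 to 5 in WT_S7 (5 without WT_S7 replicate 2), 5 to 19 in N2V7_S4 (5 without its replicate 2) and 3 to 7 in N2V7_S7 (7 without its replicate 1). With N2V8 they ranged from 1 to 3 in S3 (2 without N2V8_NTG replicate 1, 3 without N2V8_S3 replicate 1), 1 to 3 in S4 (1 without N2V8_NTG replicate 2) and 0 to 3 in S7 (1 without N2V8_NTG replicate 2 or 3 or N2V8_S7 replicate 1, 0 without N2V8_S7 replicate 3). They ranged from 0 to 2 in ASO4 against UT (2 without UT replicate 1 or ASO4 replicate 3, 1 without ASO4 replicate 1). With 3 libraries a group, changes near a log2 of 0.32 are at the limit of what these data resolve.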
